A study of Mus musculus with 20 samples.

Results

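The genes described here lie in an interval of mouse chromosome 5 around Gabra2, positions 64952031 to 73312560 of mm10, a stretch of 8.36 Mb that runs from the start of Tlr6 to the end of Gm42732. The interval was selected on measured values, namely the genotype differences of genes in it in earlier results of the same libraries, and both genes at its ends were among these. It overlaps 181 annotated genes, of which 43 had at least 100 counts summed over the 20 libraries and were not left out as pseudogenes, by name (Tlr6 and the GABA-A receptor subunit genes Gabra2, Gabra4, Gabrb1 and Gabrg1) or by symbol (Rpl9 and Cox7b2). The count table holds 55536 genes in all. Shisa3, with 105 counts, and Gm42735, with 125, lay just above the minimum, and Gm15478, with 90, and Gm15477, with 89, just below it.

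RNA came from the hippocampus of male mice 12 weeks of age, 7 days after 1 intraperitoneal injection. The 4 groups of 5 libraries were Fkbp5 knockout given LPS (lipopolysaccharide of bacterial walls, which provokes inflammation) at 3 mg/kg, Fkbp5 knockout given saline, wild-type given LPS and wild-type given saline. The strain label of every mouse, knockout or wild-type, was C57BL/6J. How the knockout line was made or bred, and whether the wild-type mice were littermates, was not given in the sources used here, and the labels do not say that each library is 1 animal, so the spread between libraries may be partly technical.

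Genes in such an interval share their place on the chromosome and not a pathway. The FKBP5 protein works with the chaperone HSP90 and lowers the response of the glucocorticoid receptor, and its gene lies on another chromosome. In the distal part of the interval is a cluster of GABA-A receptor subunit genes, whose products form the chloride channels of fast inhibition in the hippocampus, and inbred mouse strains are known to differ in the level of Gabra2. The genes around the cluster include enzymes, transporters, cytoskeletal proteins and transcripts of unknown function.

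Promoter sequences are shown for Bend4 and C330024D21Rik, because both were higher in knockout and they begin 35.6 kb apart on opposite strands, pointing away from each other. Each window holds 250 bases before and 50 bases after the RefSeq start (GRCm38.p6, the mm10 build), read 5′ to 3′ on the strand of the gene. Capitals mark the SP1 box GGGCGG on either strand. The Bend4 window is chr5:67427750-67428049, minus strand, and lies inside the GENCODE span of Bend4 and of the antisense transcript Gm26756. The C330024D21Rik window is chr5:67463648-67463947, plus strand.
Bend4: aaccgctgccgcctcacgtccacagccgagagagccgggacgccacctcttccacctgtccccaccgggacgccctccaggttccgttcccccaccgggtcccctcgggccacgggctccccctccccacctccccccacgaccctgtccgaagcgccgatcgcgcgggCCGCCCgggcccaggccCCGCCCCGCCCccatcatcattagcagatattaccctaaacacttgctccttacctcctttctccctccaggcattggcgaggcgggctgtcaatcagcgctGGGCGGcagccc
C330024D21Rik: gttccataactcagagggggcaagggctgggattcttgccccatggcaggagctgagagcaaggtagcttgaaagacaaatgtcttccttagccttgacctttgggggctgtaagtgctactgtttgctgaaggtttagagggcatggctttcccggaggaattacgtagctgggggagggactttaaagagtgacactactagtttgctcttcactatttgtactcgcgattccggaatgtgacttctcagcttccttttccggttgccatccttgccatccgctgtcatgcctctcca
The Bend4 window had 4 SP1 boxes, starting at bases 170, 187, 192 and 289, of which those at 187 and 192 share 1 base. It had 70.3% GC and 27 CpG dinucleotides. The C330024D21Rik window had no SP1 box, 51.0% GC and 7 CpG dinucleotides. Neither window held the glucocorticoid receptor half-site AGAACA, the cAMP response element half-site TGACG or the TATA box TATAAA. RefSeq windows were found for 32 of the 43 genes, 42 windows in all. The SP1 box was in 64.3% of these against 35.6% of all 32817 windows of 300 bases, beside a median GC of 62.2% against 52.7%. TGACG was in 31.0% against 20.8%, AGAACA in 11.9% against 19.0% and TATAAA in 2.38% against 13.6%.

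Of the 43 genes, 32 are protein coding, 7 are of the class TEC (loci with some transcript evidence and no settled structure), 2 are antisense and 2 are processed transcripts. Levels are given as CPM (counts over the TMM-scaled library size), and between genes as CPM per kb of merged exon. Uchl1, a ubiquitin hydrolase abundant in neurons, was highest at 409 CPM per kb over all libraries. Ociad1, an endosomal and mitochondrial protein, followed at 49.5 CPM per kb and Gm42732 at 21.2. Atp8a1, a flippase that moves phospholipids across membranes, had 17.1 and the ubiquitin-conjugating enzyme Ube2k 15.95 CPM per kb. Shisa3 was lowest at 0.0561 CPM per kb. Bend4 ranked 26 and C330024D21Rik 38 of 43, at 1.13 and 0.082 CPM per kb.

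**Figure D1:**
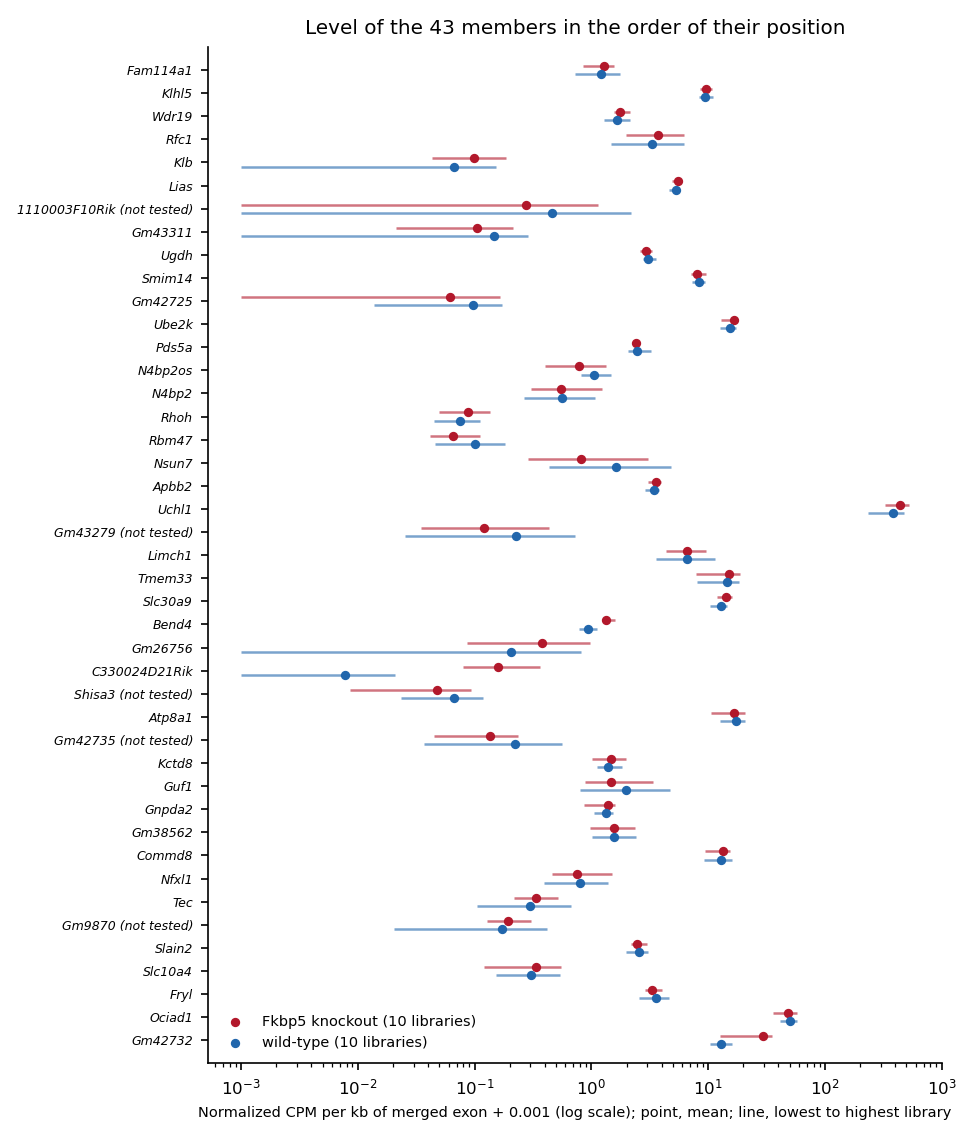
Level of the 43 interval genes in chromosome order. The horizontal log axis gives normalized CPM per kb of merged exon plus 0.001; points are means over the 10 libraries of a genotype and lines run from the lowest to the highest library, with knockout above wild-type in each pair. The ranges separate for Bend4 and C330024D21Rik, and nearly for Gm42732 apart from 1 knockout library.

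Of the 43, 38 passed the expression filter and were tested. The other 5 (1110003F10Rik, Gm43279, Shisa3, Gm42735 and Gm9870) were too low, and only their levels are given. Library totals ran from 16652992 to 27230202 counts. Fkbp5, the targeted gene, averaged 30.1 ± 4.07 CPM in knockout and 64.6 ± 5.76 CPM in wild-type libraries (SD, n = 10 each), and the 2 ranges, 25.1 to 36.0 and 56.7 to 73.4, did not overlap. The 5 hippocampal neuron markers summed to 587 to 927 CPM in every library, none at 0. Replicates 1 and 2 of every group differed from replicates 3 to 5 in 64.3% of all tested genes. Knockout LPS replicate 1 also stood apart, lying outside the range of the other 9 knockout libraries for 53.6% of all tested genes and 21 of the 38. It is 1 of 3 libraries, with wild-type LPS replicates 1 and 4, that were set apart here as high in thalamus markers. These markers summed to 199 to 244 CPM in the 3 and to 122 to 206 CPM in the other 17, so the ranges overlapped. Knockout LPS replicate 1, at 199 CPM, was below the highest knockout saline library, at 206 CPM. In whole tissue, fewer cells of a type and less RNA per cell cannot be told apart.

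Between genotypes, 3 of the 38 tested genes were past the threshold, all higher in knockout. They were Bend4, a nuclear protein with a BEN domain, a fold found in DNA-binding transcriptional regulators, and 2 transcripts of unknown function, C330024D21Rik and Gm42732. Because the interval was drawn on this comparison, its values are a description and no p is given. C330024D21Rik also met the count minimum only through its knockout libraries, which held 142 counts against 6 in wild-type libraries. Its place among the 38 was therefore not independent of genotype. The threshold is an adjusted p (Benjamini-Hochberg, edgeR's quasi-likelihood test, all 16419 tested genes) under 0.05. Over both treatments 0.439% of all tested genes passed it, and 0.292% passed it as higher in knockout.

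Bend4 (ENSMUSG00000092060, chromosome 5, 67392147 to 67428310) had 12.8, 15.3, 12.2, 12.4 and 12.3 CPM in knockout LPS libraries and 14.9, 15.8, 12.2, 12.1 and 12.7 CPM in knockout saline libraries. It had 10.4, 9.05, 10.2, 9.18 and 8.74 CPM in wild-type LPS libraries and 9.003, 11.1, 8.27, 8.05 and 7.77 CPM in wild-type saline libraries. Every knockout library was above every wild-type library, by a narrow margin between the lowest knockout and the highest wild-type. The log2 fold change, knockout over wild-type, was 0.53 ± 0.08 (SE) over both treatments, 0.61 ± 0.12 after saline and 0.45 ± 0.12 after LPS, and 0.54 over both treatments without knockout LPS replicate 1. The value after LPS was not past the threshold, and it was 0.45 and past it with the replicate number as a block. Bend4 shares 120 exonic bases with the antisense Gm26756 and 318 with Gm42632, a TEC locus also on the opposite strand, with 63 counts in all. Whether the counting used strand is not given in the sources used here.

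C330024D21Rik (ENSMUSG00000107385, chromosome 5, 67463897 to 67477632) was at or near 0 in wild-type libraries. It had 0.507, 0.514, 0.382, 0.564 and 1.13 CPM in knockout LPS libraries and 1.48, 0.682, 0.433, 0.320 and 0.387 CPM in knockout saline libraries. It had 0.0394 and 0.0812 CPM in 2 wild-type LPS libraries and 0 in the other 3, and 0.0457, 0.0461 and 0.0612 CPM in 3 wild-type saline libraries and 0 in the other 2. The genotypes did not overlap in either treatment, and knockout saline replicate 1 and knockout LPS replicate 5 were the high ones among knockouts. As counts, that is 142 in 10 knockout libraries and 6 in 10 wild-type libraries, a depth-adjusted ratio of 21.3 with a 95% interval of 9.55 to 59.0 that covers counting error only. The ratio was 19.1 (6.26 to 95.2) after LPS and 23.5 (7.76 to 116.5) after saline. The fitted log2 fold change over both treatments was 4.15 with and 4.17 without knockout LPS replicate 1.

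Gm42732 (ENSMUSG00000107331, chromosome 5, 73311364 to 73312560) lies on the same strand inside an intron of Ociad1, between exons that end at 73310426 and start at 73313443. It had 15.1, 37.9, 34.3, 35.7 and 40.2 CPM in knockout LPS libraries and 35.7, 35.4, 36.5, 42.2 and 40.4 CPM in knockout saline libraries. It had 12.3, 16.9, 16.1, 17.5 and 15.9 CPM in wild-type LPS libraries and 13.4, 19.0, 15.05, 13.97 and 15.05 CPM in wild-type saline libraries. All knockout libraries but LPS replicate 1 were above all wild-type libraries, and that one lay within the wild-type range. The log2 fold change was 1.18 ± 0.13 over both treatments, 1.31 ± 0.19 after saline and 1.05 ± 0.19 after LPS, and 1.27 over both treatments without that library. The host gene Ociad1 was not past the threshold, at 269 ± 33.6 CPM in knockout and 277 ± 36.1 CPM in wild-type libraries (SD, n = 10 each; log2 fold change -0.04 ± 0.09). Reads from unspliced Ociad1 RNA and from a separate Gm42732 transcript cannot be told apart in these counts.

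**Figure D2:**
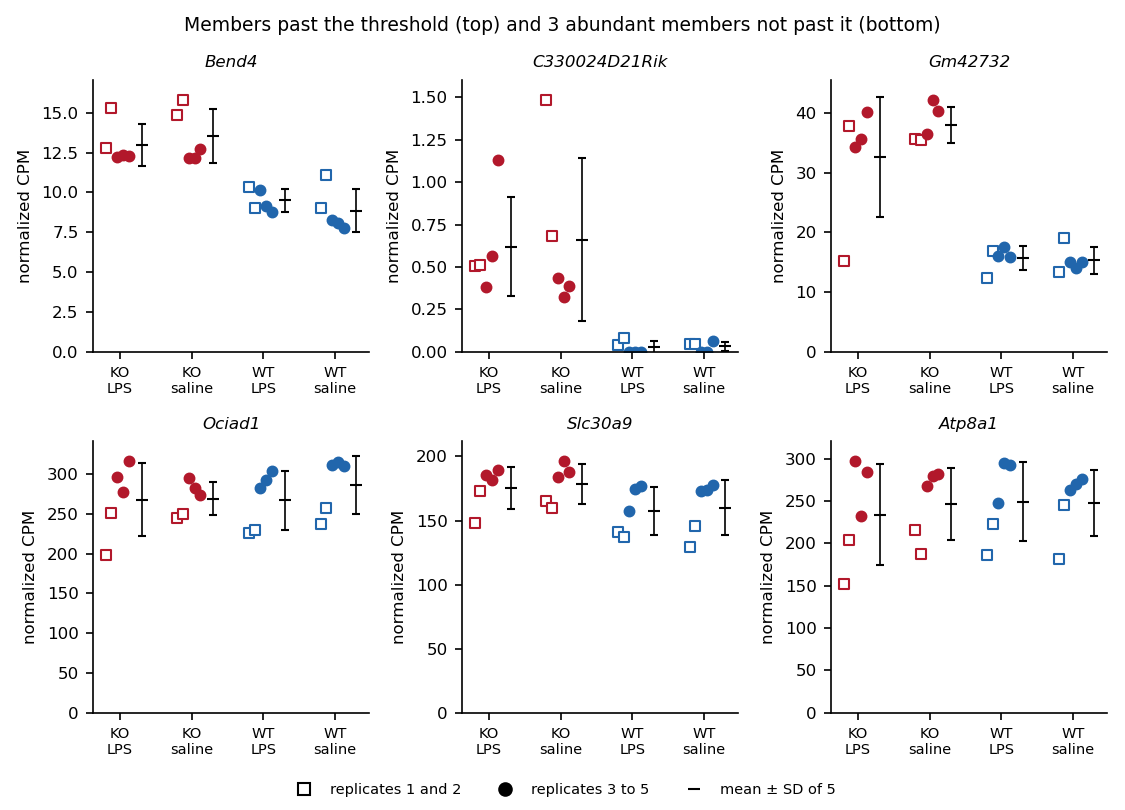
Normalized CPM of each library for Bend4, C330024D21Rik and Gm42732, past the threshold between genotypes, and for the abundant interval genes Ociad1, Slc30a9 and Atp8a1, not past it. Open squares are replicates 1 and 2, filled circles replicates 3 to 5, and bars mean ± SD of the 5 libraries of a group, cut at 0. In the upper row the knockout libraries sit above the wild-type libraries except Gm42732 in knockout LPS replicate 1, at 15.1 CPM.

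The number past the threshold was 2 after LPS (C330024D21Rik and Gm42732, beside 0.146% of all tested genes) and 3 after saline (0.171%). After LPS it was 1 when any of knockout LPS replicates 2 to 5 or wild-type LPS replicates 1, 3 or 5 was left out, since Gm42732 then missed the threshold at a log2 fold change of 0.97 to 1.23 over all left-out libraries. After saline Bend4 missed it without knockout saline replicate 1 or 2 or wild-type saline replicate 1, 3, 4 or 5. Its values over all left-out libraries, whether called or not, were 0.55 to 0.71. Over both treatments all 3 stayed past it whichever library was left out. Without overlap between the 10 knockout and 10 wild-type libraries were 2 of the 38, Bend4 and C330024D21Rik, against 0.116% of all tested genes that were higher in knockout in this way. The same genes were without overlap after LPS (0.457%), and Gm42732 joined them after saline (0.432%) or when knockout LPS replicate 1 was left out (0.128%). Since C330024D21Rik met the count minimum only through its knockout libraries, these numbers of genes are a description.

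Along the chromosome, Bend4 and C330024D21Rik lie close together and Gm42732 lies apart from them, and most of the genes beside them had values near 0. In bins of 1 Mb from the start of the interval, 2 of the 6 tested genes from 66952031 to 67952030 were past the threshold, with a bin median of 0.35. Over all tested genes 0.439% were past it. Of these 2 genes, C330024D21Rik met the count minimum only through its knockout libraries, so the counts by bin are a description. In that bin Tmem33, Slc30a9 and Atp8a1, within 1 Mb of Bend4, had log2 fold changes of 0.06 ± 0.19, 0.16 ± 0.08 and -0.05 ± 0.13. The antisense Gm26756, between Bend4 and C330024D21Rik, had 0.77 ± 0.65 at an average of 0.377 CPM and was not past the threshold. Only 1 of the 4 tested genes from 72952031 to 73312560, Gm42732, was past it, with a bin median of 0.04. None of the 15, 5, 3, 1 and 4 tested genes in the other 5 bins that held any was past it, and their medians ran from -0.02 to 0.06. The 2 bins from 67952031 to 68952030 and from 69952031 to 70952030 held no tested gene.

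The left-out Gabra2 and Tlr6 had larger values than the interval genes nearest to them. Gabra2 had 219 ± 55.2 CPM in knockout LPS, 262 ± 31.6 in knockout saline, 56.5 ± 6.26 in wild-type LPS and 72.7 ± 21.3 CPM in wild-type saline libraries (SD, n = 5 each), a log2 fold change of 1.90 ± 0.13 over both treatments. Knockout LPS replicate 1 had 146 CPM, below the other 9 knockout libraries (197 to 305 CPM) and above the wild-type libraries (50.04 to 100.4 CPM), and without it the value was 1.96. The nearest interval genes beside it were Gm38562, an antisense transcript in a Gabrb1 intron 0.58 Mb away, at -0.02 ± 0.21, and Gnpda2, a glucosamine-6-phosphate deaminase 1.37 Mb away, at 0.06 ± 0.10. Tlr6, a receptor for bacterial lipoproteins at the near end of the interval, had 1.27 ± 0.19, and the adjoining Fam114a1, 9973 bases from it, 0.08 ± 0.14. At an average of 1.07 CPM, Tlr6 was past the threshold over both treatments. It was not past it after saline, at 1.33 ± 0.28, or after LPS, at 1.21 ± 0.28. Bend4 lies 3.53 Mb and Gm42732 2.22 Mb from Gabra2. In flanks of equal length, none of the 14 tested genes before the interval and none of the 34 after it was past the threshold. Over both treatments 0.439% of all tested genes were past it. The ends of the interval were set at genes with a genotype difference. With so few flank genes, these counts therefore do not show where genotype differences end.

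**Figure D3:**
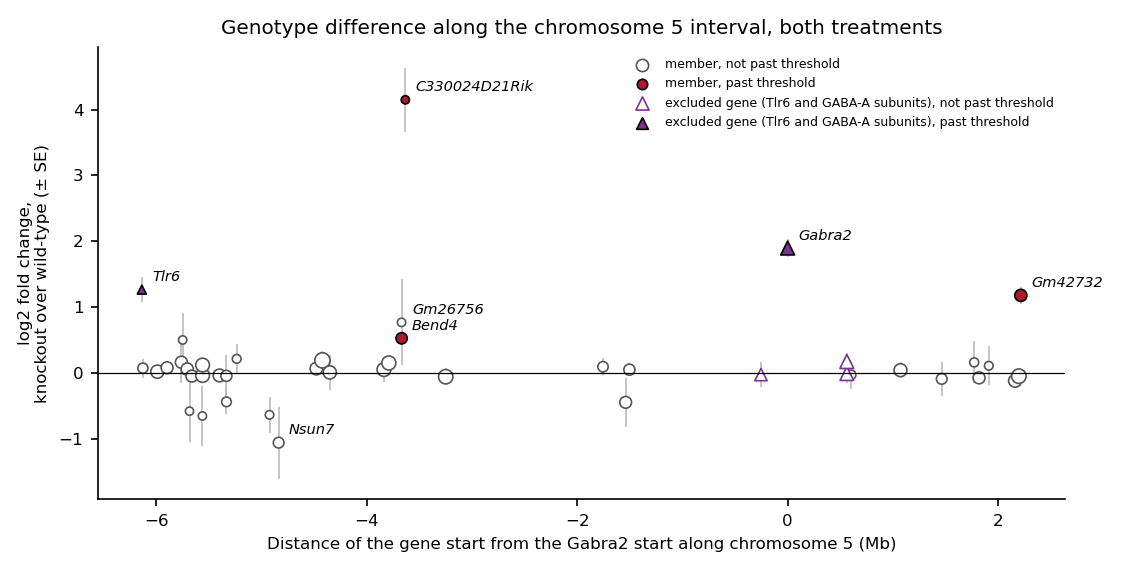
Log2 fold change of knockout over wild-type over both treatments, with its SE, against the distance of each gene start from the Gabra2 start in Mb. Circles are the 38 tested interval genes, triangles the left-out Tlr6 and GABA-A receptor subunit genes, filled symbols those past the threshold, and larger symbols more abundant genes. Bend4 and C330024D21Rik lie side by side and Gm42732 apart, among genes mostly near 0; the plotted 4.15 of C330024D21Rik rests on 6 wild-type counts.

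The median log2 fold change of the 38 was 0.05 over both treatments, 0.02 after LPS and 0.07 after saline, beside -0.01, 0.00 and -0.02 over all tested genes. Of the 35 that did not pass, 19 averaged at least 10 CPM, and 18 of those lay within 0.25 of 0. The exception was Guf1, a mitochondrial translation factor, at -0.44 ± 0.37, and the highest was Uchl1 at 0.20 ± 0.15. Guf1 shares 1022 exonic bases with Gnpda2 on the opposite strand. Whether the counting used strand is not given, so their reads there may not be separated. The lower-abundance genes spread more widely, down to -1.05 ± 0.54 for Nsun7, an RNA methyltransferase family member, and up to 0.77 ± 0.65 for Gm26756.

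By role, Bend4 was the only gene past the threshold among the lists of known function. Of the 3 genes of DNA replication, repair and cohesion, none passed, and Rfc1, the large subunit of the clamp loader, had 0.17 ± 0.32. None of the 3 tested ubiquitin pathway genes passed, with Ube2k at 0.13 ± 0.08. None of the 6 tested mitochondrial and metabolic genes passed. The most extreme, Klb, the co-receptor for fibroblast growth factors of the endocrine type, had 0.51 ± 0.40 at an average of 0.369 CPM, and Lias, which makes lipoic acid, had 0.07 ± 0.06.

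Of the 4 tested genes listed under membrane transporters and flippases (Atp8a1, Slc10a4, Slc30a9 and the membrane protein Tmem33), none passed. Slc30a9, a zinc transporter family member, had 148 to 196 CPM, median 183, in knockout and 129 to 178 CPM, median 165, in wild-type libraries, so the genotypes overlapped. None of the 5 cytoskeletal, ciliary and adaptor genes passed (Wdr19, Apbb2, Limch1, Slain2 and Fryl, -0.11 to 0.09). The immune kinase Tec and the haematopoietic GTPase Rhoh had 0.17 ± 0.32 and 0.22 ± 0.22, at averages of 1.18 and 0.833 CPM. The summed T-lymphocyte markers were 0.118 to 0.734 CPM and the summed microglia markers 170 to 317 CPM. Which cells carried Tec and Rhoh was not tested. Of the 5 genes listed under RNA binding and transcription (Rbm47, Nsun7, Bend4, Commd8 and Nfxl1), 1 passed, Bend4. Among the others, Rbm47, an RNA-binding protein, had -0.63 ± 0.27. Kctd8, an auxiliary subunit of GABA-B receptors and the 1 tested channel or receptor gene, had 4.75 ± 1.22 CPM in knockout LPS, 5.25 ± 0.862 in knockout saline, 4.87 ± 0.931 in wild-type LPS and 4.46 ± 0.643 CPM in wild-type saline libraries (SD, n = 5 each).

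Replicates 1 and 2 differed from replicates 3 to 5 in 27 of the 38 genes past the threshold, 17 higher and 10 lower in replicates 1 and 2, a share near the 64.3% of all tested genes. The labels do not name these sets of libraries; they were seen in the data. Nsun7 had 4.45 to 16.4 CPM in the 4 knockout and 12.1 to 26.1 CPM in the 4 wild-type libraries of replicates 1 and 2. In replicates 3 to 5 it had 1.53 to 2.60 CPM in the 6 knockout and 2.35 to 3.18 CPM in the 6 wild-type libraries. The ranges of the 2 sets did not overlap within either genotype. Guf1 and Limch1, an actomyosin regulator, were likewise higher in replicates 1 and 2, by 1.503 ± 0.17 and 1.09 ± 0.09 on the log2 scale, and Rfc1 by 1.31 ± 0.11. Uchl1 was lower there, with 529 to 695 CPM in knockout and 382 to 493 CPM in wild-type libraries, against 755 to 849 CPM in knockout and 685 to 777 CPM in wild-type libraries of replicates 3 to 5.

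The genotype values of the 3 genes within each set are given as a description. Their direction there follows largely from the separation of the libraries already described, so it adds no support. Bend4 had a log2 fold change of 0.59 ± 0.14 in replicates 1 and 2 and 0.50 ± 0.08 in replicates 3 to 5, and Gm42732 had 1.02 ± 0.29 and 1.29 ± 0.06. C330024D21Rik had 86 knockout and 5 wild-type counts in replicates 1 and 2, a ratio of 14.9 (6.15 to 47.1). In replicates 3 to 5 it had 56 knockout and 1 wild-type count, a ratio of 52.3 (9.01 to 2102). These 95% intervals cover counting error only. In replicates 1 and 2 alone, 0 interval genes were past the edgeR threshold in the genotype comparison over both treatments (0.0564% of all tested genes), after LPS (0.0226%) or after saline (0.0169%), and over both treatments 5 of 41 tested had an unadjusted p under 0.05, beside 6.47% of all tested genes, a count that describes the comparison the interval was drawn on.

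In the 6 knockout and 6 wild-type libraries of replicates 3 to 5, 7 of the 38 were higher in every knockout than in every wild-type library. They were Wdr19, Pds5a, Slc30a9, Bend4, Gm26756, C330024D21Rik and Gm42732, beside 1.65% of all tested genes. This count describes the comparison the interval was drawn on, in libraries grouped after the data were seen. Nothing is read from it about the interval. In the fit of these libraries 4 of 34 tested interval genes were past the threshold over both treatments, beside 8.1% of all tested genes. They were Bend4, Gm42732, Limch1 at 0.36 ± 0.08 and Rfc1 at 0.39 ± 0.11, and nothing is read from them about the interval. C330024D21Rik did not pass the filter of this fit. Gm26756 had 33 counts in the 6 knockout and 2 in the 6 wild-type libraries of replicates 3 to 5, a ratio of 15.4 (3.94 to 132.5). In replicates 1 and 2 it had 81 and 59 counts in 4 knockout and 4 wild-type libraries, a ratio of 1.19 (0.841 to 1.69). These 95% intervals cover counting error only and not the spread between libraries. The fitted log2 fold change of Gm26756 over all libraries was 0.77 ± 0.65, not past the threshold. Gm26756 starts within the exons of Bend4 and runs toward C330024D21Rik, and was named after its values were seen. Atp10d, a flippase gene that the rule leaves out as a polymorphic pseudogene, also named afterwards, had 2.43 to 2.88 CPM in the 6 knockout and 0.245 to 0.900 CPM in the 6 wild-type libraries of replicates 3 to 5. In replicates 1 and 2 it had 2.75 to 6.05 CPM in knockout and 2.08 to 5.56 CPM in wild-type libraries, which overlapped.

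**Figure D4:**
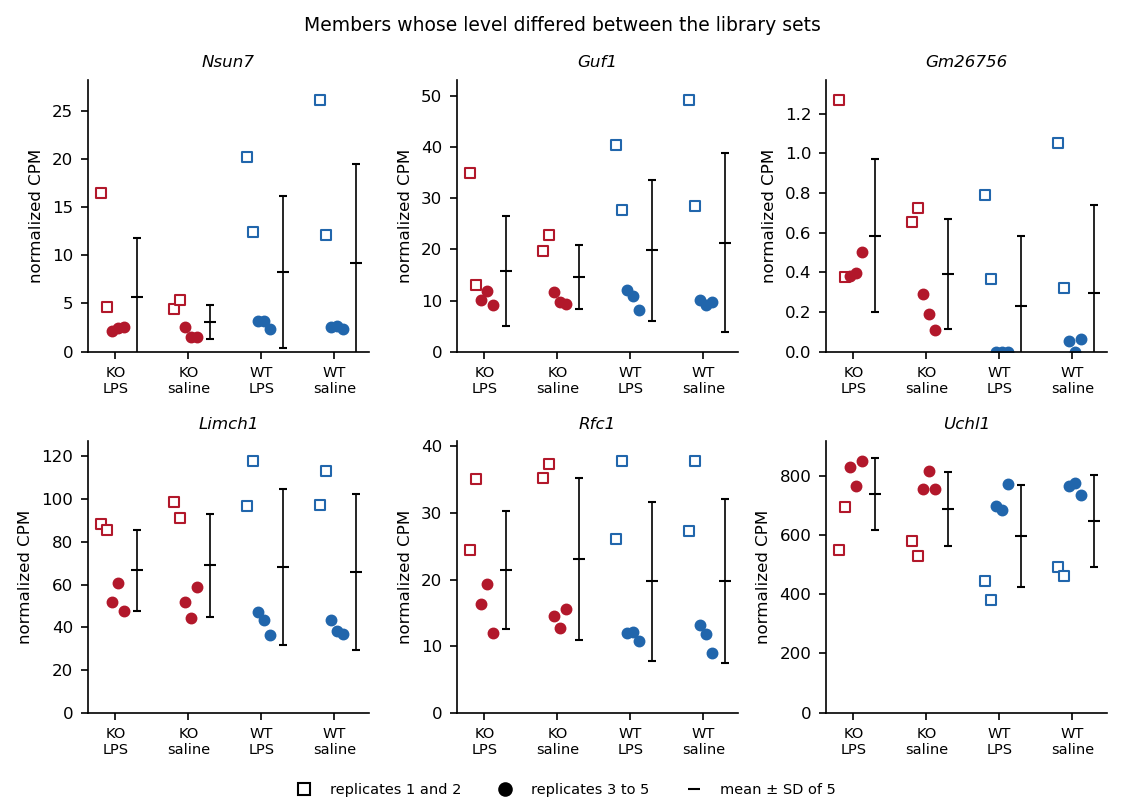
Normalized CPM of each library for 6 interval genes whose level differed between replicates 1 and 2 (open squares) and replicates 3 to 5 (filled circles). Bars are mean ± SD of the 5 libraries of a group, cut at 0. Nsun7, Guf1, Gm26756, Limch1 and Rfc1 were higher and Uchl1 lower in replicates 1 and 2; Gm26756 was at 0 to 0.0612 CPM in wild-type replicates 3 to 5.

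LPS against saline, which the choice of the interval did not use, asked whether an inflammatory stimulus left a change in these genes after 7 days. None of the 38 tested genes was past the edgeR threshold in knockout (0.00609% of all tested genes were), in wild-type (0.0%) or over both genotypes (0.0426%). DESeq2 and limma-voom also called none of them in these 3 comparisons, nor did edgeR without knockout LPS replicate 1. At an unadjusted p under 0.05 edgeR had 0 of the 38 in knockout, 1 in wild-type and 0 over both genotypes, beside 1.75%, 2.07% and 2.71% of all tested genes. DESeq2 had 0, 1 and 0 in the same order, beside 1.96%, 2.2% and 2.97% of all tested genes, and limma-voom 1, 3 and 2, beside 3.8%, 8.12% and 6.31%. No interval gene had LPS and saline libraries without overlap in knockout or in wild-type, where 0.286% and 0.274% of all tested genes were higher after LPS in this way.

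The 1 gene with an unadjusted p under 0.05 was Apbb2, an adaptor that binds the amyloid precursor protein. In wild-type it had 39.1, 41.1, 41.5, 41.2 and 36.6 CPM after LPS and 34.5, 40.0, 34.5, 36.5 and 31.4 CPM after saline. Most LPS libraries were above most saline libraries, with overlap, by 0.17 ± 0.08 on the log2 scale, and the adjusted p from edgeR was 1.00. In knockout it had 39.1 ± 3.20 CPM after LPS and 39.9 ± 2.97 CPM after saline (SD, n = 5 each), a log2 fold change of -0.03 ± 0.08.

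The 3 genes that differed between genotypes had small LPS differences. Bend4 had a log2 fold change, LPS over saline, of -0.06 ± 0.12 in knockout and 0.10 ± 0.12 in wild-type, and Gm42732 -0.22 ± 0.18 and 0.04 ± 0.19. The knockout value of Gm42732 includes knockout LPS replicate 1, at 15.1 CPM against 34.3 to 40.2 CPM in the other 4 libraries of its group. C330024D21Rik had 64 counts after LPS and 78 after saline in knockout, and 3 counts each in wild-type. The widest LPS values were those of low genes with large errors, such as Gm43311 at 1.03 ± 0.68, Nsun7 at 0.86 ± 0.78, Gm42725 at 0.77 ± 0.65 and Klb at 0.64 ± 0.55, all in knockout. Knockout LPS replicate 1 had the highest level of its group for Nsun7, at 16.4 CPM against 2.13 to 4.62 CPM in the other 4. Among abundant genes, Ube2k had -0.09 ± 0.11 in knockout and -0.10 ± 0.11 in wild-type.

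**Figure D5:**
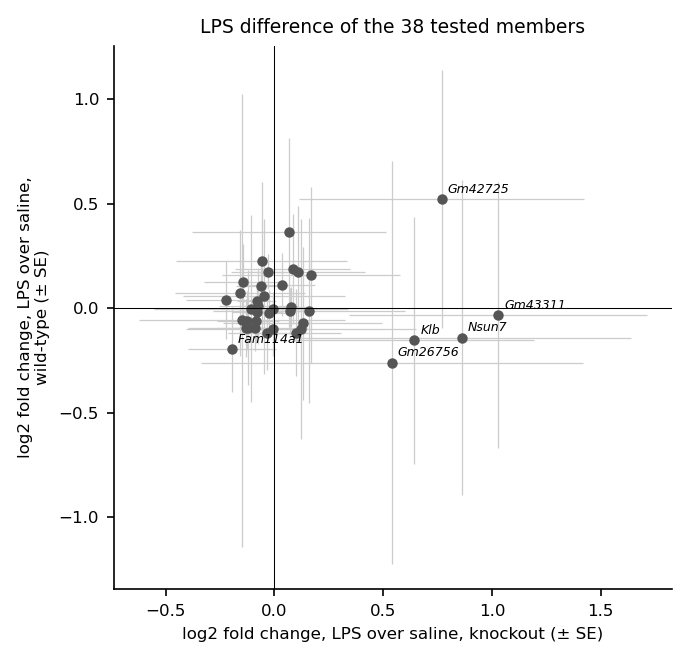
Log2 fold change of LPS over saline in knockout (horizontal) and wild-type (vertical) for the 38 tested interval genes, with SE bars. Most points lie within 0.25 of 0 on both axes, and the labelled points away from 0 in knockout are low genes with wide errors, such as Gm43311 at 1.03 ± 0.68.

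Whether LPS acted differently in the genotypes was tested by the interaction. None of the 38 genes passed the edgeR threshold, nor did any other gene (0.0% of 16419). At an unadjusted p under 0.05 edgeR and DESeq2 had 0 of the 38, beside 1.11% and 1.28% of all tested genes, and limma-voom 1, beside 4.8%. The smallest p was that of Apbb2, 0.0991, with a difference of LPS effects, knockout minus wild-type, of -0.20 ± 0.12. Gm43311 had 1.06 ± 0.93, Kctd8 -0.27 ± 0.25 and Klb 0.80 ± 0.81. For the genes past the threshold between genotypes the difference of LPS effects was -0.16 ± 0.16 for Bend4 and -0.26 ± 0.26 for Gm42732. The value of Gm42732 includes its low level in knockout LPS replicate 1.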

How the data were processed

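RNA from the hippocampus of 20 mouse samples was sequenced by the study. The deposited values are raw counts per Ensembl gene, whole numbers that the authors had not normalized. The submitters' processing notes name Trimmomatic 0.38, FastQC, MultiQC, featureCounts 1.6.0 and mm10, and the labels name the NEBNext Ultra RNA kit and 1 µg of total RNA. The aligner, annotation release and strand setting are not given in the sources used here. All 55536 gene identifiers matched GENCODE M21 (GRCm38), the source of positions and classes.

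Counts were tested with the package edgeR 4.0.16 in R 4.3.3 (TMM, filterByExpr by group, robust quasi-likelihood F test, all 20 libraries in 1 fit), with Benjamini-Hochberg adjustment over 16419 genes and a threshold of 0.05, in 7 comparisons. SE is the fitted log2 fold change over the square root of F. Ratios of low counts have exact 95% binomial intervals, which cover counting error only. The genes of the interval and the lists of roles and markers were chosen with earlier results of these data known. Genes were named by a rule: the targeted gene and landmarks, genes past the threshold between genotypes, the smallest p in the LPS and interaction comparisons, the highest levels, the nearest, first and last, those beside the count minimum, and at least 1 of each role. Guf1, Gm26756, N4bp2os, Rbm47 and Atp10d, and genes that complete a short count, were named after their values were seen. Gm42632 was named for its overlap with Bend4.

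Alternatives were DESeq2 1.42.0 and its size factors, limma-voom with quality weights (limma 3.58.1), no filter, a filter of 5 libraries with at least 1 CPM, replicate numbers as blocks, a term for the library set, each set alone, only the groups compared, without the 3 libraries high in thalamus markers, other count minimums and each library left out. As deviations from group means, 30 same-numbered library pairs of different groups correlated at 0.264 to 0.854 (median 0.462), other pairs within a set at 0.191 to 0.672 (0.450) and pairs across the sets at -0.705 to -0.149. The pairing comes from the numbers in the sample titles alone.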

Additional observations from a re-analysis of the deposited data

Results flagged for a closer look

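In 8 of the 116 gene and group combinations examined, 1 library lay far from the other 4, by Dixon's criterion for 5 values (chance gives about 1 in 20). In knockout LPS replicate 1, 6 genes were so placed. Gm42732 was low there, at 15.1 CPM against 34.3 to 40.2 CPM in the other 4 libraries. The others were high there: Nsun7 with 16.4 CPM against 2.13 to 4.62 CPM, Guf1 with 35.0 CPM against 9.22 to 13.1 CPM and Gm26756 with 1.27 CPM against 0.377 to 0.502 CPM. N4bp2os had 3.51 CPM against 1.69 to 1.88 CPM, and the left-out Atp10d 6.05 CPM against 2.60 to 2.88 CPM. Fkbp5 in that library was 35.1 CPM, inside the range of the other knockout libraries (25.1 to 36.0 CPM) and outside that of wild-type (56.7 to 73.4 CPM). Its Bend4 and C330024D21Rik, at 12.8 and 0.507 CPM, were inside the range of the other knockouts and above every wild-type library. Its Gabra2, at 146 CPM, was below the other knockouts (197 to 305 CPM) and above every wild-type library (50.04 to 100.4 CPM). The part of its thalamus markers in these values was not tested. Bend4 was high in knockout LPS replicate 2, at 15.3 CPM against 12.2 to 12.8 CPM, and C330024D21Rik in knockout LPS replicate 5, at 1.13 CPM against 0.382 to 0.564 CPM.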

How the results depend on the processing

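For single genes, 5507 of 5561 values under an alternative stayed on their side of the threshold, 33 lost it, 21 gained it and 0 turned a called direction. The number of interval genes past the threshold between genotypes was 0 in replicates 1 and 2 alone in all 3 genotype comparisons. In the fit of only the groups compared it was 0 after LPS and 1 after saline. After LPS, against 2, it was 1 with at least 1 CPM in 5 libraries, in replicates 3 to 5 alone, without the 3 libraries high in thalamus markers and with a count minimum of 500, and 3 with limma-voom and with the library set term. After saline, against 3, it was 2 with no filter and under each setting that gave 1 after LPS, and 4 with limma-voom. Over both treatments, against 3, it was 2 with at least 1 CPM and with a count minimum of 500, and 4 with limma-voom and in replicates 3 to 5 alone. Leaving out 1 library gave 1 to 2 after LPS, 2 to 3 after saline and 3 in every case over both treatments. With the replicate block it was 3 in each genotype comparison, Bend4 being past the threshold after LPS at a log2 fold change of 0.45, and the block changed no other call of an interval gene. C330024D21Rik did not pass the filter in the fits of only the groups compared, with at least 1 CPM in 5 libraries and in replicates 3 to 5 alone. With 148 counts it also fell under the minimum of 500. The numbers under these settings therefore leave this gene out. The causes of the other changes were not tested. With the block the genes called over both treatments among all 16419 were 176, against 72 without it. With limma-voom they were 536 and with DESeq2 122. After saline limma-voom called 362 of all 16419 genes, against 28 with edgeR, and after LPS 62, against 24. The library set term gave 54 after LPS. Replicates 3 to 5 alone gave 500 of 15523 genes after saline and 118 after LPS. Higher numbers of interval genes thus came with more calls over all genes. For LPS and the interaction 0 interval genes passed under every alternative run. Low counts limit C330024D21Rik and Gm26756, and 5 of the 43 genes were too low to test.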
